A study of Arabidopsis thaliana with 8 samples.

Results

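*N*-hydroxypipecolic acid (NHP) is a small molecule that Arabidopsis leaves make from lysine, and 4 genes of its synthesis and conjugation are described here: *ALD1* (AT2G13810), *SARD4* (AT5G52810), *FMO1* (AT1G19250) and *UGT76B1* (AT3G11340). They were chosen by gene identifier and not by a threshold on their values, though with earlier results of these data known. All 4 were found among the 37336 genes of the count table. The aminotransferase ALD1 removes the α-amino group of lysine, and the reductase SARD4 reduces the cyclic product to pipecolic acid. The monooxygenase FMO1 then hydroxylates the nitrogen of pipecolic acid to give NHP. NHP is known as a mobile signal of systemic acquired resistance, the state in which leaves far from an infection become more resistant, and it acts together with salicylic acid (SA). The glucosyltransferase UGT76B1 attaches glucose to NHP, and also to SA and to isoleucic acid, and so takes part in the turnover of the signal and not in its synthesis.

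Messenger RNA of leaves was sequenced in 8 libraries, 2 for each of 4 genotypes in the Col-0 ecotype: wild-type Col-0, *big*, *mips1* and the double mutant *mips1 big*. MIPS1 catalyses the first step of *myo*-inositol synthesis, *mips1-1* is a line with a T-DNA insertion, and its leaves form lesions in long days. BIG is a very large protein of unknown biochemical function. The *big* allele, which the paper calls *somi2* and the labels only by the gene, is a 1-base deletion found among mutagenised *mips1* plants that no longer formed lesions, and the single *big* mutant was recovered by crossing the double mutant back to Col-0. All plants, the controls too, had per the labels spent 1 week in vitro in long days (16 h of light), 2 weeks on soil in short days (8 h of light) and then 5 days in long days, whereas the paper's methods for these libraries give a shorter stay in long days after short days only. Each sample pooled rosette leaves of several plants. The sources used do not say whether replicates came from separate cultures, so p-values measure only the spread between these samples.

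Libraries held 50123257 to 104501879 counts, so that 3 counts, taken as the limit of detection, corresponded to 0.0273 to 0.0716 CPM, the depth-scaled count. The labels were checked on the mutated genes: *MIPS1* was at 5.30 to 10.8 CPM in the 4 libraries labelled *mips1* or *mips1 big* and at 94.7 to 152.3 CPM in the other 4, and *BIG* was at 57.2 to 93.4 CPM in the 4 libraries with the *big* allele against 112.7 to 211.7 CPM in the rest. The leaf label was checked on 5 mesophyll genes (*RBCS1A*, *RBCS2B*, *RCA*, *CA1* and *LHCB1.3*), whose summed level was 47710 to 49730 CPM in Col-0, 31590 to 32360 CPM in *big*, 14750 to 14760 CPM in *mips1* and 25190 to 27260 CPM in *mips1 big*. Markers of root summed to 4.80 to 6.59 CPM in Col-0 and *mips1* and to 57.1 to 68.5 CPM in *big* and *mips1 big*, nearly all of it from *PYK10*, with the root hair genes *COBL9* and *EXPA7* at no more than 0.0485 CPM. Flower markers summed to 1.27 to 2.54 CPM, and the 3 genes moved differently: *AP3* was at no more than 0.133 CPM, *PI* was at 1.96 and 1.86 CPM in *mips1* and at 0.0716 to 0.182 CPM in the other 6 libraries, and *AG* was at 0.294 and 0.264 CPM in *mips1* and at 1.15 to 2.31 CPM in the other 6. *PI* was thus highest in the genotype in which *ALD1*, *SARD4* and *FMO1* were, and its part in their values was not tested.

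The stretch of 250 bases before the annotated start is printed for *ALD1*, *FMO1* and *UGT76B1*. *ALD1* and *FMO1* fell in the double mutant against *mips1*, and *UGT76B1* did not pass the test. *SARD4* also fell, and its window is described below but not printed. The letters were read from the RefSeq TAIR10.1 genome, whose start and end of all 4 genes are those of the count table. Capitals mark every match, on either strand, to GAAATTT, the motif that the transcription factors SARD1 and CBP60g are known to bind. The other motifs searched on both strands were the W box TTGAC of WRKY factors and TGACG of TGA factors. The *ALD1* window is chr2:5768167-5768416 (+ strand), the *FMO1* window chr1:6653196-6653445 (− strand, printed 5′ to 3′ along the gene) and the *UGT76B1* window chr3:3556304-3556553 (+ strand).
ALD1: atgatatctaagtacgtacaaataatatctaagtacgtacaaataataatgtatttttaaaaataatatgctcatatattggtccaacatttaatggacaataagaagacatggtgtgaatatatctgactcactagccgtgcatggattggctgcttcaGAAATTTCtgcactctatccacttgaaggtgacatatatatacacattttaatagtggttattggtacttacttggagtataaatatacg
FMO1: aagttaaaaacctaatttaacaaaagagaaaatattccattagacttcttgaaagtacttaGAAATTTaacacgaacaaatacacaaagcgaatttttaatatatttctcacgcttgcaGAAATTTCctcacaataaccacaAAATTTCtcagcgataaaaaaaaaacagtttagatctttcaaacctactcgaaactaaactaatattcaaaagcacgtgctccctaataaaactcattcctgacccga
UGT76B1: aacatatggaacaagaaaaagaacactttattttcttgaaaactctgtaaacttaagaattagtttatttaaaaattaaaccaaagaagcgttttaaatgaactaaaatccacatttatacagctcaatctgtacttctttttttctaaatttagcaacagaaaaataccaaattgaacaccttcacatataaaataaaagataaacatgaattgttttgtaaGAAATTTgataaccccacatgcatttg
In *ALD1* the motif stood at bases 90 to 84 before the start on the gene's strand and, overlapping it, at bases 89 to 83 on the other strand. In *FMO1* there were 4 matches, at bases 189 to 183, 131 to 125, 130 to 124 and 108 to 102 before the start, of which the middle pair overlapped each other. *UGT76B1* held 1 match, at bases 27 to 21. The *SARD4* window, which lies within the neighbouring gene AT5G52800, held no GAAATTT and 2 W boxes, at bases 82 to 78 and 68 to 64. The 3 windows printed held neither TTGAC nor TGACG. Of 27443 promoters of the same length, 12.5% held GAAATTT at least once and 5 held it at least 4 times, while 44.9% held TTGAC and 18.6% held TGACG. A match describes the letters only, and binding was not measured.

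*ALD1*, the first enzyme of the route, lies on chromosome 2 (TAIR10, 5768417 to 5772266, + strand, 10 exons, 1571 bp of exon). It gave 13 and 19 counts in the Col-0 libraries and 27 and 21 in the *big* libraries, against 3578 and 6585 in *mips1* and 383 and 313 in *mips1 big*. Scaled by TMM, a factor that corrects library size for composition, these were 0.310 and 0.224 CPM in Col-0, 0.373 and 0.318 CPM in *big*, 50.0 and 60.0 CPM in *mips1*, and 4.64 and 4.63 CPM in *mips1 big*. The order of levels was therefore Col-0, *big*, *mips1 big* and *mips1*, and no library of a genotype overlapped the next. *ALD1* rose by 7.75 ± 0.15 (log2 fold change and SE, n = 2 libraries a genotype) between Col-0 and *mips1*, which is 215.9-fold (edgeR quasi-likelihood test, p adjusted over all genes = 3.64e-13). Between *mips1* and *mips1 big* it fell by 3.57 ± 0.10 on the log2 scale (adjusted p = 9.73e-12), and *mips1 big* kept 8.43% of the *mips1* level (7.71% to 9.28% over pairs of libraries). The double mutant nevertheless remained 13.3-fold above *big* (log2 fold change 3.74 ± 0.16, adjusted p = 7.47e-09). *big* and Col-0 were not told apart by the test (0.45 ± 0.28, 95% interval −0.15 to 1.05, adjusted p = 0.240).

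*SARD4*, the reductase that yields pipecolic acid, lies on chromosome 5 (21399331 to 21400686, + strand, 1 exon, 1356 bp) and was the gene of the 4 with the highest level in Col-0. It was at 13.01 and 14.9 CPM in Col-0 and 14.6 and 16.0 CPM in *big*, at 87.7 and 88.2 CPM in *mips1*, and at 22.9 and 21.9 CPM in *mips1 big*. The libraries of Col-0 and *big* overlapped, and those of *mips1 big* and *mips1* stood above them, apart from each other. The increase in *mips1* was 6.28-fold (log2 fold change 2.65 ± 0.08, adjusted p = 1.69e-11). In *mips1 big* the level fell by 1.97 ± 0.08 on the log2 scale from *mips1* (adjusted p = 1.61e-10). It kept 25.5% of the *mips1* level, against 15.9% already present in Col-0 and 17.4% in *big*. A difference of 1.47-fold from *big* remained (0.55 ± 0.08, adjusted p = 0.000314), while *big* against Col-0 gave 0.13 ± 0.08 (95% interval −0.05 to 0.30, adjusted p = 0.215). The first 89 bp of *SARD4* overlap the same-strand gene AT5G52800, which received 37 to 278 counts against 545 to 9682 for *SARD4*; reads in that stretch were counted for both genes.

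*FMO1*, whose enzyme makes NHP itself, lies on chromosome 1 (6650476 to 6653195, − strand, 5 exons, 1915 bp) and had the widest range. The Col-0 libraries held 6 and 2 counts and the *big* libraries 34 and 21, against 6558 and 11379 in *mips1* and 1020 and 884 in *mips1 big*. In CPM, Col-0 was at 0.143 and 0.0235, of which the latter is under the limit of 3 counts for its library, *big* at 0.469 and 0.318, *mips1* at 91.7 and 103.7, and *mips1 big* at 12.4 and 13.1. The 4 genotypes did not overlap, in the order Col-0, *big*, *mips1 big* and *mips1*. *FMO1* passed the filter on low counts only through the 6 libraries of the mutants, and a gene admitted in that way had to differ from Col-0, so its values against Col-0 are a description and no p is given for them. The fitted difference between *mips1* and Col-0 was 10.55 ± 0.24 on the log2 scale (1500-fold), and the ratio of summed counts was 1569 with a 95% interval from counting error alone of 796.1 to 3635. The estimate depended on which Col-0 library was used: leaving out replicate 1 of Col-0 gave 11.93, and leaving out replicate 2 gave 9.39. Against *mips1*, *FMO1* in *mips1 big* fell by 2.94 ± 0.13 on the log2 scale (adjusted p = 4.28e-09) to 13.02% of its level (11.9% to 14.3%), which was still 31.9-fold above *big* (5.00 ± 0.19, adjusted p = 3.02e-08).

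Between *big* and Col-0 the fitted *FMO1* difference was 2.61 ± 0.50 on the log2 scale (6.11-fold, 95% interval 1.498 to 3.73). The ratio of counts was 55 to 8, or 6.29 after scaling with a counting interval of 2.98 to 15.3. Leaving out replicate 1 of Col-0 gave 3.99, and leaving out its replicate 2 gave 1.46, while a filter of at least 10 counts in every library removed the gene.

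*UGT76B1*, whose enzyme conjugates NHP, lies on chromosome 3 (3556554 to 3558361, + strand, 2 exons, 1730 bp) and its libraries of *mips1* and of the double mutant overlapped. It gave 14 and 23 counts in Col-0 and 21 and 21 in *big*, against 1140 and 1863 in *mips1* and 1546 and 1076 in *mips1 big*. The levels were 0.334 and 0.271 CPM in Col-0, 0.290 and 0.318 CPM in *big*, 15.9 and 17.0 CPM in *mips1*, and 18.7 and 15.9 CPM in *mips1 big*. The libraries thus fell into a low pair of genotypes, Col-0 and *big*, and a high pair, *mips1* and *mips1 big*, and within each pair they overlapped. In *mips1*, *UGT76B1* rose 55.9-fold over Col-0 (log2 fold change 5.80 ± 0.15, adjusted p = 3.94e-12), and in *mips1 big* it rose 56.9-fold over *big* (5.83 ± 0.15, adjusted p = 1.97e-10). *mips1 big* against *mips1* gave 0.07 ± 0.09 on the log2 scale (95% interval −0.13 to 0.28, adjusted p = 0.480), with 105.3% of the *mips1* level kept (93.7% to 117.6% over pairs of libraries). For *big* against Col-0 the value was 0.05 ± 0.25 (95% interval −0.49 to 0.59, adjusted p = 0.903).

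**Figure D1:**
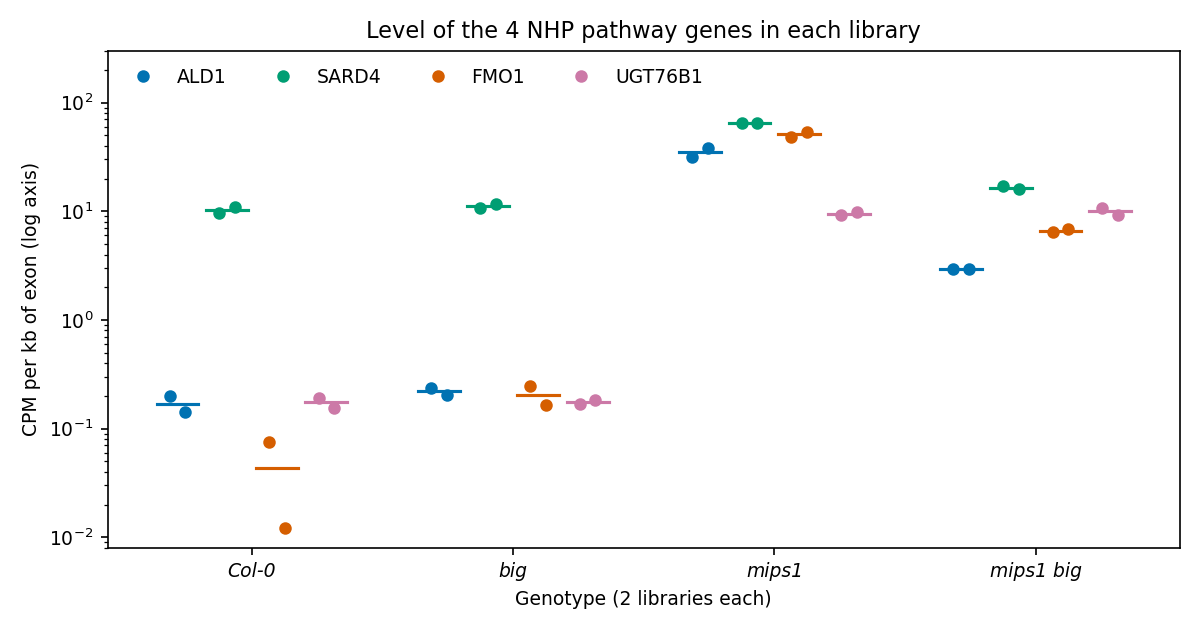
Level of each gene in each library, in CPM per kb of exon on a log axis, by genotype; points are the 2 libraries and bars their mean. *ALD1*, *SARD4* and *FMO1* stand highest in *mips1* and lower in *mips1 big*, whereas the libraries of *UGT76B1* overlap between both (means of 9.51 and 10.01 CPM per kb).

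Between *mips1* and Col-0, *ALD1*, *SARD4* and *UGT76B1* rose, and *FMO1* was higher as described, where 36.0% of the 23916 genes tested were called higher and 37.1% lower. A rise was thus common to many genes. By log2 fold change *FMO1* ranked 47, *ALD1* 263, *UGT76B1* 595 and *SARD4* 1749 of 23916. The summed mesophyll markers were lower in these *mips1* libraries (5 of 5 called, log2 fold changes −1.99 to −1.47), and their part in the result was not tested. In whole leaves, fewer cells of a type and less RNA per cell cannot be told apart. Between *big* and Col-0, none of *ALD1*, *SARD4* and *UGT76B1* passed the edgeR test (0 at an unadjusted p under 0.05 and 0 with DESeq2; background 25.6% of genes higher and 23.6% lower), though with library size only *ALD1* and *SARD4* passed as higher (adjusted p = 0.0457 and 0.00165), and *SARD4* also without Col-0 replicate 2 (adjusted p = 0.0378). Between *mips1 big* and Col-0, these 3 genes rose (background 31.1% higher and 30.7% lower): *UGT76B1* by 5.88 ± 0.15, *ALD1* by 4.18 ± 0.17 and *SARD4* by 0.68 ± 0.08 on the log2 scale, with adjusted p of 1.11e-05 or less. *FMO1* gave 7.61 ± 0.27 there. Between *mips1 big* and *mips1*, 3 of 4 fell, where 38.9% of all genes were called lower and 39.1% higher.

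The comparison of *mips1 big* with *big* asks what differed with the *mips1* mutation between lines that both carried the *big* allele. These lines were crossed differently, so other mutations left by the mutagenesis could also differ between them. The part of such mutations was not tested. The comparison had the smallest background, with 8.46% of genes called higher and 10.8% lower. All 4 genes rose in it. *UGT76B1* ranked 19, *FMO1* 45, *ALD1* 105 and *SARD4* 1741 of 23916 genes by log2 fold change. A further count was chosen after values had been seen: 2317 genes were called higher in *mips1* than in Col-0 with a log2 fold change of at least 2, and of these 843 (36.4%) were also called higher in *mips1 big* than in *big*, a comparison that shares no library with the first. Their median log2 fold change in it was 0.39, and 15 of them had a larger value than *UGT76B1*, 40 than *FMO1*, 98 than *ALD1* and 958 than *SARD4*.

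**Figure D2:**
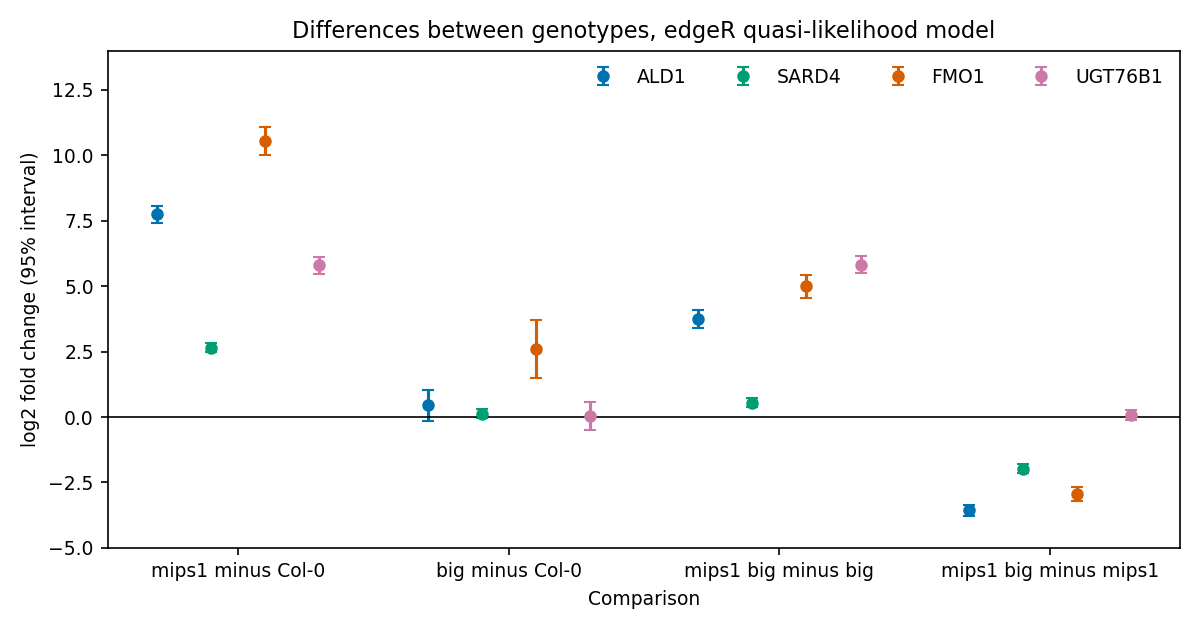
Log2 fold change of the 4 genes in 4 comparisons, with 95% intervals of the edgeR model (2 libraries a genotype). In the last comparison the interval of *UGT76B1* runs from −0.13 to 0.28, across 0, and those of the other 3 genes lie below it.

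Whether the change between lines without and with the *mips1* mutation differed between *big* and Col-0 was tested as an interaction. It was called lower for *ALD1* and *SARD4*, where 31.2% of all genes were and 30.8% were called higher, with log2 values of −4.02 ± 0.30 for *ALD1* (adjusted p = 1.73e-07) and −2.10 ± 0.11 for *SARD4* (adjusted p = 6.95e-09). For *FMO1*, whose value uses the few Col-0 counts and is a description, it was −5.55 ± 0.48, which became −6.93 when replicate 1 of Col-0 was left out and −4.38 when its replicate 2 was. For *UGT76B1* it was 0.02 ± 0.27 (adjusted p = 0.964), with a 95% interval of −0.56 to 0.61 that does not reach the values of the other 3.

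**Figure D3:**
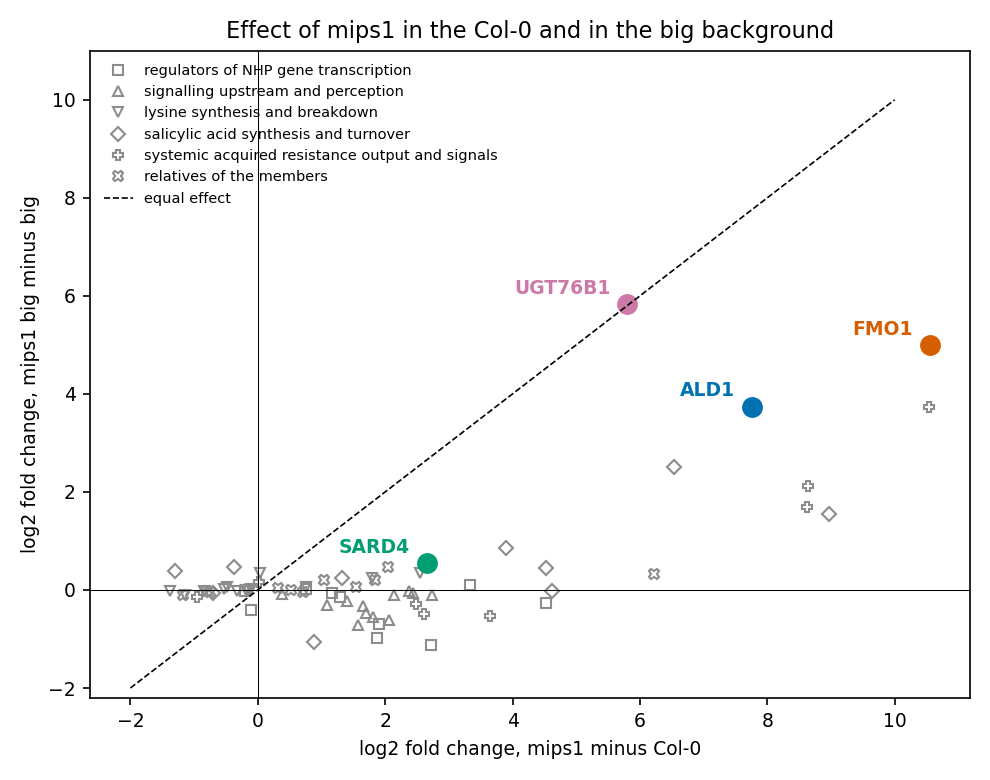
Log2 fold change between lines with and without the *mips1* mutation in the *big* background (vertical) against that in Col-0 (horizontal), for the 4 genes (filled circles) and the 6 lists of related genes (open symbols); the dashed line marks equal values. *UGT76B1* lies on the line at 5.80 and 5.83, *ALD1*, *FMO1* and *SARD4* lie under it, and most list genes lie near 0 on the vertical axis.

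Ratios between the genes within a library do not depend on how libraries were scaled, and per kb of exon they compare levels between genes. *UGT76B1* stood at 0.192 and 0.181 of the *FMO1* level in the *mips1* libraries and at 1.68 and 1.35 of it in *mips1 big*, so the gene of conjugation went from below the gene of NHP synthesis to above it. In *big* this ratio was 0.684 and 1.11, and in Col-0 2.58 and 12.7, the latter set by 2 counts of *FMO1*. *SARD4* exceeded *ALD1* 48.6-fold and 77.1-fold in Col-0, 45.4-fold and 58.3-fold in *big*, 2.03-fold and 1.70-fold in *mips1*, and 5.73-fold and 5.47-fold in *mips1 big*. *FMO1* to *ALD1* was 1.504 and 1.42 in *mips1* and 2.19 and 2.32 in *mips1 big*. The libraries of these 2 genotypes did not overlap in any of the 3 ratios, though 2 against 2 cannot give an exact two-sided permutation p below 0.333.

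**Figure D4:**
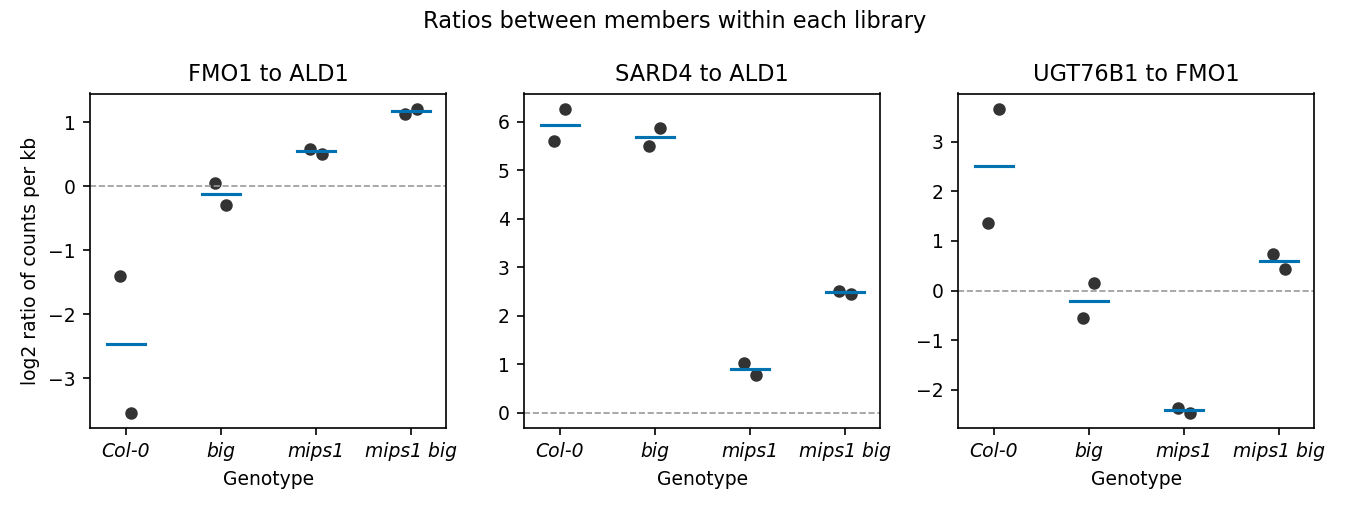
Log2 ratio of counts per kb within each library for 3 pairs of genes, by genotype; points are libraries, bars their means and the dashed line a ratio of 1. *UGT76B1* to *FMO1* has a mean of −2.42 in *mips1* and 0.59 in *mips1 big*.

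Per kb of exon, the order of the genes by mean level in Col-0 was *SARD4* (10.3 ± 0.975 CPM per kb, SD, n = 2), *UGT76B1* (0.175 ± 0.0260), *ALD1* (0.170 ± 0.0391) and *FMO1* (0.0436 ± 0.0442), with *UGT76B1* and *ALD1* not separated by their spread. In *big* it was *SARD4* (11.3 ± 0.703), *ALD1* (0.220 ± 0.0248), *FMO1* (0.205 ± 0.0561) and *UGT76B1* (0.176 ± 0.0113), of which each of the last 3 overlapped its neighbour. In *mips1* it was *SARD4* (64.9 ± 0.279), *FMO1* (51.0 ± 4.43), *ALD1* (35.0 ± 4.49) and *UGT76B1* (9.51 ± 0.424). In *mips1 big* it was *SARD4* (16.5 ± 0.565), *UGT76B1* (10.01 ± 1.15), *FMO1* (6.64 ± 0.263) and *ALD1* (2.95 ± 0.00566). *UGT76B1* thus moved from the last place in *mips1* to the place after *SARD4* in *mips1 big*.

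Genes of the factors known to control this pathway were mostly higher in *mips1* than in Col-0, and in *mips1 big* stood near or below their level in *big*. In *mips1*, 8 of the 10 listed regulators rose and 1 fell, beside 36.0% and 37.1% of all genes, and the median (log2) was 1.58, beside −0.03 for all genes. The list was not divided by whether a factor raises or lowers transcription, and *CAMTA2* (0.77) and *CAMTA3* (1.29) were among the 8. *SARD1*, a transcription factor of the *ALD1* and *FMO1* promoters, was at 16.4 and 15.4 CPM in Col-0, 16.4 and 16.8 CPM in *big*, 157.5 and 161.7 CPM in *mips1*, and 17.5 and 18.2 CPM in *mips1 big*. Its relative *CBP60G* was at 13.3 and 11.95 CPM in Col-0, 14.3 and 14.8 CPM in *big*, 287.9 and 293.4 CPM in *mips1*, and 12.4 and 11.9 CPM in *mips1 big*. For both factors the *mips1* libraries stood far above the other 6, which lay close together. In *mips1 big*, *ALD1*, *FMO1* and *UGT76B1* were well above *big*, and *SARD4* was above it by 0.55 on the log2 scale. The part of these factors in the values of the members was not tested. *CBP60G* rose most of the list in *mips1* (4.53 ± 0.08, adjusted p = 1.40e-13). *CAMTA1*, of the family of calmodulin-binding transcription activators, was the lowest (−0.20 ± 0.06, adjusted p = 0.00848). Its value turned to 0.13 when libraries were scaled by their size only, and did not pass without either *mips1* library (−0.16 without replicate 1 and −0.18 without replicate 2).

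Between *mips1 big* and *big*, 5 of the 10 regulators fell, beside 10.8% of all genes, and the other 5 did not pass, with a median of −0.20 against −0.0045 for all genes. The 5 were *WRKY33* (−1.13 ± 0.08, adjusted p = 5.18e-07), *WRKY70* (−0.99 ± 0.07), *WRKY54* (−0.68), *TGA4* (−0.41) and *CBP60G* (−0.26 ± 0.07, adjusted p = 0.0252). *SARD1* gave 0.11 ± 0.07 (95% interval −0.04 to 0.25, adjusted p = 0.302). With library size only, *SARD1* passed as higher (0.22, adjusted p = 0.0323) and *CBP60G* did not pass (−0.15, adjusted p = 0.151). The call of *CBP60G* was also lost without either *big*, either *mips1* or either *mips1 big* library (adjusted p = 0.0533 to 0.217), and that of *TGA4* without *big* replicate 2 (adjusted p = 0.0645).

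Of 12 genes that act upstream of NHP or perceive SA, 12 rose in *mips1* (median 1.75; 36.0% of all genes rose), from *MPK6*, a MAP kinase (0.38 ± 0.07, adjusted p = 0.000458), to *ADR1*, a helper immune receptor (2.73 ± 0.08, adjusted p = 8.33e-12). *EDS1*, a hub of immune receptor signalling, was among them (2.38 ± 0.08). In *mips1 big* against *big*, 7 of the 12 fell, beside 10.8% of all genes, and 5 did not pass (median −0.27). *NDR1*, a membrane protein of resistance signalling, fell most (−0.71 ± 0.08, adjusted p = 4.66e-05), and *NPR3*, an SA receptor, gave −0.62. *EDS1* and *ADR1* did not pass (−0.03 ± 0.08 and −0.10 ± 0.07). The call of *NPR1* (−0.22, adjusted p = 0.0366) was lost under DESeq2 (adjusted p = 0.0868) and under most other settings. The call of *NPR4* was lost without *big* replicate 2 or *mips1 big* replicate 1 (adjusted p = 0.108 and 0.0692), and that of *ADR1-L1* without *big* replicate 2 or *mips1 big* replicate 2 (adjusted p = 0.0685 and 0.066).

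*ALD1* draws on lysine. Of 15 genes of lysine synthesis and breakdown, 3 rose and 6 fell in *mips1* (median −0.16), and with library size only 6 rose and 3 fell (median 0.17). The share that fell is near that of all genes (37.1%), and that which rose is below it (36.0%). The 3 that rose were *LKR/SDH*, the bifunctional enzyme that starts the breakdown of lysine through saccharopine (2.55 ± 0.07, adjusted p = 5.58e-12), *ALDH7B4*, an aldehyde dehydrogenase (1.80 ± 0.07), and *AK3*, an aspartate kinase (0.76). *DAPB1*, a dihydrodipicolinate reductase of lysine synthesis, fell most (−1.38 ± 0.08, adjusted p = 5.48e-09). *AGD2*, the nearest relative of *ALD1* and an aminotransferase of lysine synthesis, fell by 0.54 on the log2 scale, but with library size only gave −0.21 and did not pass (adjusted p = 0.0805). In *mips1 big* against *big*, 3 of 15 rose, beside 8.46% of all genes, and the rest did not pass: *DHDPS2* (0.35 ± 0.07, adjusted p = 0.00588), *LKR/SDH* (0.34 ± 0.07, adjusted p = 0.00317) and *ALDH7B4* (0.24 ± 0.07, adjusted p = 0.0353). The calls of *ALDH7B4* and *DHDPS2* were lost without *big* replicate 1, *big* replicate 2 or *mips1 big* replicate 1 (adjusted p = 0.0536 to 0.256).

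SA, which acts with NHP, has its own route from isochorismate. Of 10 genes of SA synthesis and turnover, 7 rose and 3 fell in *mips1* (median 2.61; 36.0% and 37.1% of all genes), with *DLO1*, an SA hydroxylase, the highest (8.97 ± 0.12, adjusted p = 3.30e-14) and *ICS2* the lowest (−1.29 ± 0.20, adjusted p = 7.72e-05). The other 2 that fell were *EPS1* (−0.37) and *UGT74F1* (−0.70): with library size only neither passed (−0.04 and −0.37, adjusted p = 0.737 and 0.133), and with DESeq2 *UGT74F1* did not (adjusted p = 0.0532). The call of *EPS1* was also lost without *mips1* replicate 1 (adjusted p = 0.0819), and that of *UGT74F1* without Col-0 replicate 2 or *mips1* replicate 2 (adjusted p = 0.144 and 0.0695). In *mips1 big* against *big*, 5 rose and 1 fell (median 0.42; 8.46% and 10.8% of all genes). *EDS5* did not pass (0.25 ± 0.11, adjusted p = 0.157), but passed as higher with only these genotypes fitted (0.26, adjusted p = 0.00206). It also passed with at least 1 count in any library (adjusted p = 0.0196) and with library size only (adjusted p = 0.0313). *PBS3*, which conjugates isochorismate to glutamate, rose most (2.52 ± 0.12, adjusted p = 3.33e-08), from 2.51 and 2.68 CPM in *big* to 15.65 and 14 CPM in *mips1 big*. *ICS1*, the main isochorismate synthase, rose by 0.86 ± 0.08 (adjusted p = 9.97e-06), from 11.6 and 11.2 CPM to 20.8 and 20.6 CPM. *DLO1* (1.55 ± 0.11), *EPS1* (0.47 ± 0.10) and the SA hydroxylase gene *DMR6* (0.44 ± 0.06) made up the rest, and *UGT74F2*, an SA glucosyltransferase, fell by 1.06 ± 0.07 (adjusted p = 4.03e-07). The call of *EPS1* was lost without *big* replicate 1 (adjusted p = 0.128) and without *mips1 big* replicate 2 (adjusted p = 0.0677). The other SA glucosyltransferase, *UGT74F1*, did not pass (−0.06), whereas *UGT76B1*, which can also act on SA, rose by 5.83.

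Of 8 genes of systemic acquired resistance, 6 rose and 1 fell in *mips1* (median 3.13; 36.0% and 37.1% of all genes). *PR1*, the usual marker of SA responses, rose most (10.54 ± 0.14, adjusted p = 3.15e-14), and *GLY1*, a glycerol-3-phosphate dehydrogenase, fell (−0.95 ± 0.08, adjusted p = 2.08e-07). In *mips1 big* against *big*, 3 rose and 2 fell (median 0.01; 8.46% and 10.8% of all genes). The 3 were the secreted defence proteins *PR1* (3.73 ± 0.10, adjusted p = 2.56e-10), *PR5* (2.11 ± 0.08) and *PR2* (1.69 ± 0.08), and the 2 were *EARLI1*, a lipid transfer protein (−0.53 ± 0.09), and *LLP1*, a lectin-like protein (−0.49 ± 0.07). *PR1* was at 1.03 and 1.06 CPM in Col-0, 7.37 and 5.85 CPM in *big*, 1561 and 1555 CPM in *mips1*, and 91.6 and 84.3 CPM in *mips1 big*, the same order of genotypes as *FMO1*. Between *big* and Col-0, 7 of the 8 rose, beside 25.6% of all genes, and *GLY1* did not pass (−0.0089). Among the 7 were *PR1*, *PR2* and *PR5* (2.66 ± 0.13, 2.13 ± 0.09 and 2.21 ± 0.10), *LLP1* (1.385 ± 0.07) and *EARLI1* (0.41 ± 0.09).

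Relatives of the 4 genes were compared for reads and for direction. Of the stretches of 75 bases, the length of a read, within the exons of *ALD1* (919), *SARD4* (1282), *FMO1* (1545) and *UGT76B1* (1582), 0 occurred elsewhere in the genome. Of 15 relatives (*AGD2*, the flavin monooxygenases and the UGT76 family) 13 were tested. In *mips1*, 9 rose and 4 fell (median 0.70, beside 36.0% and 37.1% of all genes), from *UGT76C2* (−1.17 ± 0.08, adjusted p = 5.51e-08) to *UGT76D1*. For *UGT76D1*, which is among the 9, no fold is given, since it held 0 and 2 counts in Col-0, and 1.31 and 1.27 CPM in *mips1*. It passed the filter on low counts only through libraries of the mutants, so its place among the 9 is a description. In *mips1 big* against *big*, 1 of the 13 rose, beside 8.46% of all genes, and 12 did not pass: *UGT76E12* gave 0.46 ± 0.10 (adjusted p = 0.00613), a call lost without *big* replicate 1 (adjusted p = 0.0941), and *UGT76D1* gave 0.32 ± 0.41 (95% interval −0.57 to 1.20). *UGT76E1* gave 0.55 ± 0.19 (adjusted p = 0.0649) and passed without either Col-0 library (adjusted p = 0.0455 and 0.0416), with only the compared genotypes fitted (0.0489) and with library size only (0.0283). With library size only, 3 of the 13 rose. None of the 13 had a log2 fold change near the 5.83 of *UGT76B1* in this comparison, whereas the level of *UGT76B1* in *mips1 big* was not particular to it, since *UGT76E11* was at 19.9 and 19.0 CPM there.

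The genes next to each member were looked at after the values of the members had been seen. *PIRL9*, 1710 bp before *UGT76B1*, rose by 0.67 in *mips1* (adjusted p = 2.79e-06), and AT3G11350, 133 bp after *UGT76B1*, held 0 to 2 counts in every library. AT1G19240, 29 bp from *FMO1*, rose by 0.50 in *mips1* (adjusted p = 7.78e-05). Beside *ALD1*, *SERK5* rose by 1.23 and *XYP2* changed by −2.32 in *mips1* (adjusted p = 4.11e-06 and 5.27e-10). AT5G52800, which overlaps *SARD4* over 89 bp where reads were counted for both genes, rose by 1.52 in *mips1* (adjusted p = 4.72e-06). The part of *SARD4* reads in its values was not tested. Between *mips1* and Col-0 the 5 neighbours tested thus had smaller log2 fold changes, in either direction, than the member beside them, which did not hold in every comparison: between *mips1 big* and Col-0 AT5G52800 gave 0.86 and *SARD4* 0.68.

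The genes most like each member were found by the root mean square difference (RMS) of their log2 CPM, centred on the mean, over the 8 libraries, among 20152 genes with at least 1 CPM on average. Nearest to *ALD1* were AT5G38900, annotated as a thioredoxin superfamily protein (RMS 0.218), AT2G18690, uncharacterised (0.266), and *PUB54*, a U-box protein (0.299). Nearest to *SARD4* were the transporter genes *ABCC11* (0.0789) and *ABCC3* (0.0931) and the peroxidase gene AT5G64120 (0.104). *FMO1* had no neighbour that near: *PR1* came first (0.674), then AT3G28510, a nucleoside triphosphate hydrolase (0.690), and *YLS9* (0.708). By RMS, *UGT76B1* was farther still from its nearest genes, with the transporter gene *ABCG40* at 0.738, the bHLH gene AT5G56960 at 0.830 and *ABO3*, a WRKY factor, at 0.867. *ABCG40* was at 4.83 CPM in Col-0, 4.07 in *big*, 233.0 in *mips1* and 73.7 in *mips1 big* (means), and so, unlike *UGT76B1*, was lower in the double mutant than in *mips1*. Among the members the nearest pair by RMS was *ALD1* and *FMO1* (1.21), followed by *ALD1* and *UGT76B1* (1.29), with *ALD1* and *SARD4* at 2.09. The order depended on the measure. Pearson's correlation again put *ALD1* and *FMO1* first (r = 0.974), but *ALD1* and *SARD4* second (0.953), with *ALD1* and *UGT76B1* at 0.908. By Pearson's correlation in place of the RMS, the genes nearest to *UGT76B1* were AT1G64795, an uncharacterised gene at 0 CPM in Col-0 and *big*, 14.5 in *mips1* and 11.8 in *mips1 big*, AT3G55920, a cyclophilin-like gene at 1.59, 1.56, 15.4 and 16.9 CPM in the same order, and *WRKY42*. The highest r was 0.9989 for *UGT76B1*, 0.9979 for *ALD1*, 0.9995 for *SARD4* and 0.9923 for *FMO1*, so *UGT76B1* was not set apart by it. Fewer genes had r over 0.99 with *UGT76B1* (2) than with *FMO1* (4), *ALD1* (61) or *SARD4* (310).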

How the data were processed

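Single-end reads of 75 bases from 8 leaf libraries were, per the file headers and the study's methods, trimmed by the authors with Trimmomatic, mapped to TAIR10 with STAR 2.7.0d and counted with featureCounts 1.6.3. The deposited table holds raw counts per gene over Araport11 exons and each gene's exon length. The counting settings admitted multi-mapping reads and reads of overlapping genes, required a mapping quality of at least 10 and did not use strand. Whether any multi-mapping read reached that quality was not examined. The labels name a DNA library kit and the paper a directional poly(A) RNA kit. A table of counts the authors divided by size factors and 4 tables of their own log2 fold changes and p-values were not used here.

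Genes were filtered with filterByExpr (minimum count 10), which kept 23916 of 37336, scaled by TMM and tested with edgeR 4.0.16 (glmQLFit, robust; quasi-likelihood F test) in R 4.3.3, in 1 model of 4 genotypes with 4 residual degrees of freedom and a common dispersion of 0.00726. P-values were adjusted by Benjamini-Hochberg over all genes tested, and genes were called at an adjusted p under 0.05. SE is the log2 fold change divided by the square root of F; intervals are 95%. Levels are CPM, or CPM per kb to compare genes. Counting intervals (exact binomial) and the limit of 3 counts cover counting error only. Distances between profiles used log2 CPM with a prior count of 2. Promoters and coordinates came from RefSeq TAIR10.1, in which 99.5% of matched genes had the same start and end. The test was tried on simulated data. DESeq2 1.42.0, other scalings and filters, a minimum log2 fold change of 1, the replicate block, fits of only the compared genotypes, and omission of each library were alternatives. Python 3.11.15, pandas 2.3.3 and matplotlib 3.10.9 made tables and figures.

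The members and gene lists were chosen with earlier results of these data known. Named beside the 4 genes were, by a written rule, the extremes of each list between *mips1* and Col-0, list genes whose call differed from the rest of their list, the 3 nearest profiles of each member, and the mutated genes.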

Additional observations from a re-analysis of the deposited data

Results flagged for a closer look

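The change between lines without and with the *mips1* mutation differed between the *big* and the Col-0 background for *ALD1* and *SARD4*. This was tested as the interaction in edgeR over 2 libraries a genotype. The *FMO1* value is given as a description, since that gene passed the filter on low counts only through the mutants. On the log2 scale the difference was −4.02 for *ALD1* (7.75 in Col-0 and 3.74 in *big*), −2.10 for *SARD4* (2.65 and 0.55) and −5.55 for *FMO1* (10.55 and 5.00). In each case the 2 *mips1 big* libraries lay below the 2 *mips1* libraries and above the 2 *big* libraries. That of *FMO1* rests on 6 and 2 counts in Col-0 and moved to −6.93 without Col-0 replicate 1 and to −4.38 without Col-0 replicate 2. *UGT76B1* gave 0.02 and did not pass the same test.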

How the results depend on the processing

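Of the recomputed log2 fold changes of the 4 genes, 359 kept their direction and their side of the threshold, 3 came to pass it, 2 no longer passed and 10 changed sign; of the recomputed counts of called members, 187 stayed within 1.5 times and 3 did not. The count of members higher in *big* than in Col-0 was 1 (*FMO1*, which passed the filter only through the mutants), became 3 with library size only and 0 with at least 10 counts in every library, which removed *FMO1*, and ranged from 1 to 2 when 1 library was left out (2 without Col-0 replicate 2). With library size only, *ALD1* (0.72, adjusted p = 0.0457) and *SARD4* (0.40, adjusted p = 0.00165) passed between *big* and Col-0, and *SARD4* did so without Col-0 replicate 2 (0.23, adjusted p = 0.0378). A minimum log2 fold change of 1 removed *SARD4* from *mips1 big* against Col-0 (0.68) and against *big* (0.55). *UGT76B1*, near 0 in 3 comparisons, changed sign there without passing: between *big* and Col-0 to −0.14 and −0.02 without Col-0 replicate 2 and *big* replicate 2 (range with 1 library left out −0.14 to 0.16); between *mips1 big* and *mips1* to −0.0037 and −0.0485 without replicate 1 of *mips1* and of *mips1 big* (range −0.0485 to 0.21); and in the interaction to −0.19 with library size only, −0.0049 with at least 1 count in any library, and −0.09, −0.04, −0.05 and −0.10 without replicate 1 of Col-0, *big*, *mips1* and *mips1 big* (range −0.10 to 0.24). *FMO1* against Col-0 moved by over 1.5 times without either Col-0 library.

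With library size only the median of all genes moved to 0.30 (*mips1* against Col-0), 0.27 (*big* against Col-0), 0.38 (*mips1 big* against Col-0), 0.10 (*mips1 big* against *big*) and −0.20 (interaction), and the calls of higher and lower genes became 12033 and 5813 (8602 and 8877 with TMM), 11506 and 2109 (6129 and 5646), 13721 and 2848 (7428 and 7338), 4172 and 1476 (2023 and 2583), and 5404 and 9642 (7377 and 7463). Calls between *mips1 big* and *big* also became 3710 and 3792 with only these genotypes fitted, 534 and 322 with a minimum log2 fold change of 1, 3652 and 3691 without Col-0 replicate 2, and 884 and 1201 without *big* replicate 1. A minimum log2 fold change of 1 left 4126 higher and 3424 lower genes between *mips1* and Col-0, 2159 and 601 between *big* and Col-0, 3035 and 1199 between *mips1 big* and Col-0, 4245 and 4336 between *mips1 big* and *mips1*, and 3097 and 3905 in the interaction. Deviations of replicate 1 from the mean of its genotype correlated at −0.22 to 0.21 between genotypes. With 2 libraries a genotype, these values cannot settle whether samples with the same number were paired. With the replicate block *ALD1* between *mips1* and Col-0 was 7.77 and *UGT76B1* rose by 5.80, and no call of a member changed. The list genes *ALDH7B4* and *NPR1* then no longer passed between *mips1 big* and *big* (adjusted p = 0.0539 and 0.0543). When a library was left out, the lone library of its genotype was assumed to vary like the others. The interaction could not be fitted with only 2 genotypes. Ratios to *FMO1* in Col-0, with 6 and 2 counts, are limited by depth.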
